A study of Mus musculus with 4 samples.

Results

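Macrophages of the liver were followed through 10 genes, of 34761 genes with a non-control probe on the array. They were taken by gene name and set down as 2 groups, 6 genes of the resident Kupffer cell identity (Clec4f, Vsig4, Timd4, Cd5l, Marco and Folr2) and 4 genes shared by macrophages in general (Cd68, Mpeg1, Csf1r and Lyz2). All 10 were well above background on every array. Liver RNA came from male C57BL/6 mice, an inbred laboratory strain, given a diet high in fat and sucrose for 0, 5, 10 or 15 weeks from 5 weeks of age, so that the animals were 5, 10, 15 and 20 weeks old at sampling. Each time point is represented by 1 array, and although 4 mice per time point are mentioned for the series, it is not stated whether an array held RNA of 1 mouse or of a pool. All arrays after 0 weeks carry both longer feeding and greater age, no control-diet mice were analysed here, and diet and age cannot be told apart.

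Kupffer cells are the macrophages that live in the liver sinusoids, where they clear bacteria, old red cells and apoptotic cells from the blood. Most of them are seeded before birth and renew themselves in place, and signals of the neighbouring endothelial, stellate and parenchymal cells keep a liver-specific set of genes on, among them the genes called resident here. When Kupffer cells are lost, as is known from mouse models of fatty liver, monocytes enter from the blood, carry general macrophage genes from the start and take on resident genes only in part and with time, Timd4 late.

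The signals were read from 60-base oligonucleotides, with 1 spot per array for each member probe. The oligos of Clec4f, Folr2 and Lyz2 are shown because each of these genes has 1 probe, and because the 2 resident genes were highest at 10 weeks and the general gene at 15 weeks. In build mm9, as the scanner files place them, they lie at chr6:83595281-83595339, chr7:108988771-108988830 and chr10:116719175-116719234, all on the minus strand. Exon or UTR was not assigned, since no gene models of that build were used here.
Clec4f: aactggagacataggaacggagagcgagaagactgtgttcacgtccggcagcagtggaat
Folr2: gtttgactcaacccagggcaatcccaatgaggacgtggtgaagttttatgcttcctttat
Lyz2: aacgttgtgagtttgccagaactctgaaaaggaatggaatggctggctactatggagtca

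Values are the log2 of the processed signal after division by the array's 75th percentile, so that 0 is the 75th percentile of all non-control spots. The 4 arrays had 44.5% to 48.3% of 59305 such spots well above background, 17887 to 19229 genes above background, and no saturated spot. Probes printed 10 times on an array varied between their spots with a median SD of 0.063 to 0.074 on this scale, and the scanner software gave each member signal an error of 0.14 to 0.15, which puts the error of a difference between arrays at 0.19 to 0.21. None of these errors covers differences between mice, and with 1 array per time point no difference below has a replicate check or a test. In whole liver RNA, fewer or more cells of a type and less or more RNA per cell cannot be told apart. The median of all measured genes stood at −0.020, −0.0094 and −0.25 at 5, 10 and 15 weeks against 0 weeks, and the value at 15 weeks moved between −0.42 and 0.26 with the processing. Differences relative to this median are therefore given beside the plain ones for the members and list medians at 15 weeks against 0 weeks. All 10 hepatocyte markers checked were above background on the 4 arrays, as were Stab2 and Lyve1 of the sinusoidal endothelium.

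Clec4f, a C-type lectin that in mice is found on Kupffer cells, had scaled log2 signals of 4.47, 5.25, 5.54 and 5.04 at 0, 5, 10 and 15 weeks. The 10-week array was the highest and the 0-week array the lowest. Vsig4, a complement receptor that captures opsonised bacteria, had the same order of arrays, with 3.64, 4.62, 4.77 and 4.50. Its values at 5, 10 and 15 weeks lay close together, and neither 10 nor 15 weeks differed from 5 weeks beyond the scanner error. Folr2, the folate receptor beta, stood at 1.21, 2.38, 2.77 and 2.20. Here too the arrays after 0 weeks were higher and the highest was that of 10 weeks. The folds at 15 weeks over 0 weeks were 1.49 for Clec4f, 1.82 for Vsig4 and 1.98 for Folr2, all smaller than the folds at 10 weeks over 0 weeks, which were 2.11, 2.19 and 2.95. Their log2 differences at 15 weeks against 0 weeks were 0.58, 0.86 and 0.99, or 0.83, 1.11 and 1.24 relative to the median gene.

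Cd5l, a secreted scavenger protein also called AIM and made by tissue macrophages, was the resident gene that stood higher on each later array, with 5.59, 6.41, 6.94 and 7.12. The plain difference between 15 and 10 weeks, 0.18, was within the scanner error. It was 0.42 relative to the median gene and lay between 0.18 and 0.75 over the settings, so its size depends on the scaling. Cd5l was 2.88-fold higher at 15 weeks than at 0 weeks, a log2 difference of 1.53, or 1.78 relative to the median gene. Marco, a scavenger receptor for bacteria and particles, stood at 3.68, 3.52, 3.89 and 4.89, so the first 3 arrays lay within 0.37 of each other and that of 15 weeks was apart. It was 2.004-fold higher at 15 weeks than at 10 weeks and 2.32-fold higher than at 0 weeks, the last a log2 difference of 1.21, or 1.46 relative to the median gene. Its difference between 5 and 0 weeks, −0.15, was within the scanner error.

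Timd4, a phosphatidylserine receptor for apoptotic cells that marks long-established Kupffer cells, was the resident gene that was lower at 15 weeks than at 0 weeks. Its scaled log2 signals were −0.26, −0.97, −0.32 and −1.24, lowest at 15 weeks and without a steady order, since 10 weeks was level with 0 weeks. Timd4 was 1.97-fold lower at 15 weeks than at 0 weeks and 1.90-fold lower than at 10 weeks, but 1.205-fold lower than at 5 weeks. Relative to the median gene these differences were −0.73, −0.68 and −0.054 on the log2 scale, so at 15 weeks against 5 weeks Timd4 was level with the median gene. Its spot on the 0-week array had bright surroundings. Of its 48 neighbouring spots 13, or 27.1%, were at least 2-fold above their median on the other arrays there, against 0, 0 and 1 on the arrays of 5, 10 and 15 weeks. Such surroundings (a share of 25% or more) held 0.219% of the spots of that array and no other member spot on any array. The part of this in the differences of Timd4 from 0 weeks was not tested, and the difference between 15 and 10 weeks does not use that spot.

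**Figure D1:**
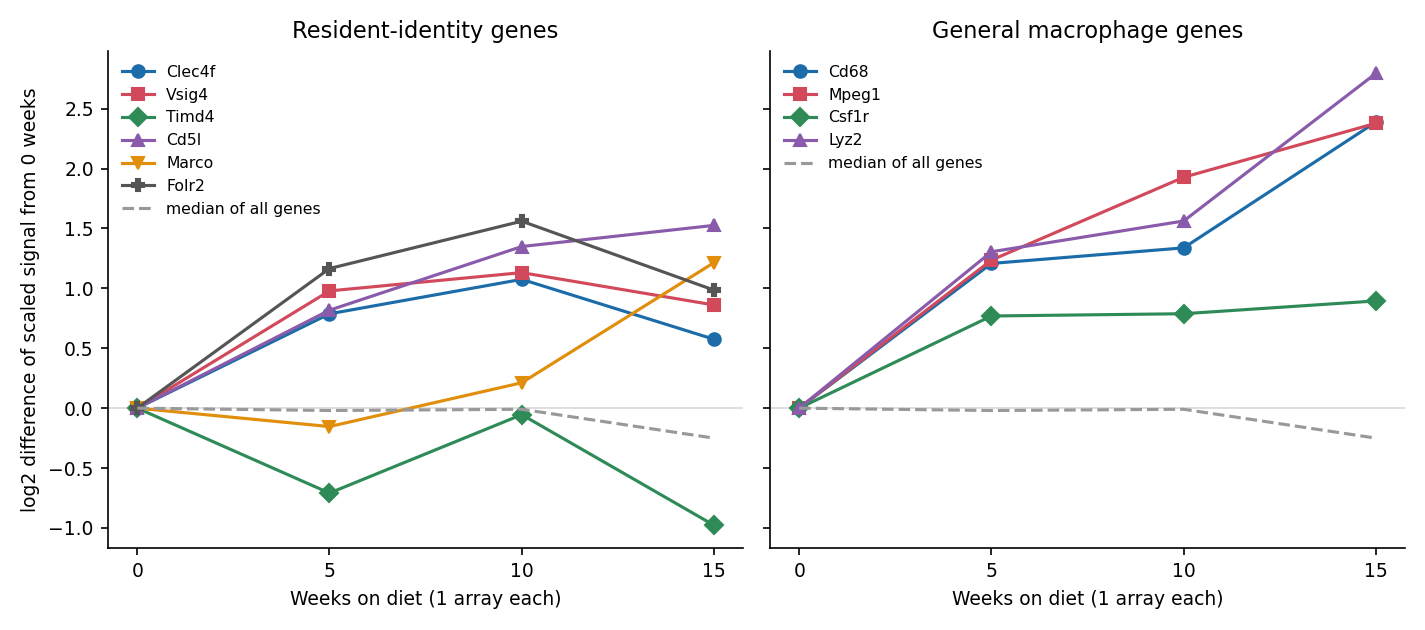
Log2 difference of the scaled signal from the 0-week array (vertical axis) against weeks on the diet (horizontal axis, 1 array per time point), for the 6 resident-identity genes on the left and the 4 general macrophage genes on the right; the dashed line is the median of all measured genes. Lyz2, Cd68 and Mpeg1 end at 2.79, 2.39 and 2.38, while the resident genes end between −0.98 for Timd4 and 1.53 for Cd5l.

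Among the general genes, Lyz2, the lysozyme of macrophages, monocytes and neutrophils, had scaled log2 signals of −0.72, 0.58, 0.84 and 2.07 at 0, 5, 10 and 15 weeks. The array of 15 weeks stood well apart and that of 0 weeks was lowest. Cd68, a lysosomal glycoprotein of phagocytes, showed the same order with 1.90, 3.11, 3.24 and 4.29, and its values at 5 and 10 weeks differed by less than the scanner error. Mpeg1, the pore-forming protein perforin-2 of phagocytes, stood at 2.89, 4.12, 4.81 and 5.27, a more even spacing. At 15 weeks over 0 weeks the folds were 6.94 for Lyz2, 5.24 for Cd68 and 5.20 for Mpeg1. As log2 differences these were 2.79, 2.39 and 2.38, or 3.04, 2.64 and 2.63 relative to the median gene.

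Csf1r, the receptor for the growth factors CSF1 and IL-34 on which macrophages depend, behaved unlike the other general genes. It had 5.32, 6.09, 6.11 and 6.21, with the 0-week array lowest and the other arrays within the scanner error of each other. That closeness depends on the processing. Between 15 and 10 weeks Csf1r differed by 0.11, by 0.35 relative to the median gene, and by −0.011 to 0.68 over the settings. Csf1r was 1.86-fold higher at 15 weeks than at 0 weeks, a difference of 0.90, or 1.15 relative to the median gene. By its plain difference it stood with Vsig4 and Folr2 (0.86 and 0.99) and below Marco (1.21).

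Several probes were available for 3 members. The 3 probes of Csf1r differed between 15 and 0 weeks by 0.90, 1.07 and 0.39, all in the same direction, and between 15 and 10 weeks by 0.11, 0.11 and −0.25. Both Mpeg1 probes were higher at 15 weeks than at 0 weeks, by 2.38 and 1.66. The other probe of Cd68 was not well above background at 0, 5 and 10 weeks and was above it at 15 weeks, at least 2.53-fold higher than at 0 weeks, a bound set by the lowest signal well above background on the 0-week array. Each probe of Cd68 and Mpeg1 was thus higher at 15 weeks, and for the other Cd68 probe the size has only this lower bound.

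**Figure D2:**
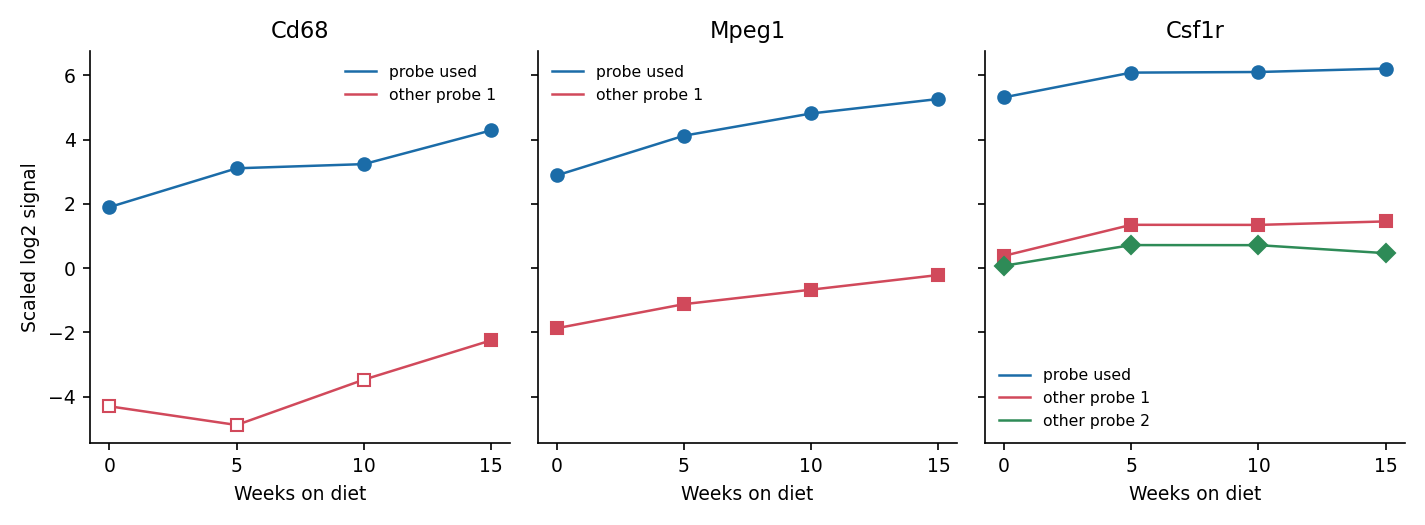
Scaled log2 signal (vertical axis) of every probe of Cd68, Mpeg1 and Csf1r against weeks on the diet (horizontal axis, 1 array per time point); open symbols are not well above background, and levels of different probes are not comparable. The other Cd68 probe is filled at 15 weeks only, and 1 Csf1r probe is lower at 15 weeks than at 10 weeks, by 0.25.

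Set side by side, the 2 groups stood apart at 15 weeks and much less before. At 5 weeks against 0 weeks 1 of 6 resident genes (Folr2) and 3 of 4 general genes were at least 2-fold higher, and none was 2-fold lower, where 2.31% of 17094 measured genes were higher and 1.56% lower. At 10 weeks against 0 weeks it was 4 of 6 resident genes (Clec4f, Vsig4, Cd5l and Folr2) and 3 of 4 general genes, against 2.92% of 17141 genes higher and 1.53% lower. Most members of both groups were therefore among the higher genes of the liver at that time. At 15 weeks against 0 weeks 2 of 6 resident genes (Cd5l and Marco) and again 3 of 4 general genes were at least 2-fold higher and none was 2-fold lower, against 5.75% higher and 5.03% lower of 17560 genes. Relative to the median gene 4 of 6 resident genes were at least 2-fold higher, with Vsig4 and Folr2 added, and 4 of 4 general genes, where 8.1% of genes were, and none was 2-fold lower, where 2.77% were.

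The resident genes had median log2 differences from 0 weeks of 0.80, 1.10 and 0.92 at 5, 10 and 15 weeks, and the general genes of 1.22, 1.45 and 2.38. With the all-gene median taken off, the resident medians were 0.82, 1.11 and 1.17 and the general medians 1.24, 1.46 and 2.63. The resident minus general median difference was thus −0.42 and −0.35 at 5 and 10 weeks and −1.46 at 15 weeks, a 2.75-fold gap that any scaling by 1 factor per array leaves as it is. Over the other settings it lay between −0.65 and −0.090 at 5 weeks, between −0.52 and −0.12 at 10 weeks, and between −1.53 and −1.196 at 15 weeks. All 3 share the 0-week array, and the genes of a group are not replicates of a condition. Of the 24 pairs of a resident and a general gene, the resident gene had the lower difference in 20, 18 and 21 at 5, 10 and 15 weeks. At 15 weeks the 3 exceptions were Cd5l, Marco and Folr2, each above Csf1r.

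Most of the gap lay between 10 and 15 weeks. In that step the resident median was −0.39 and the general median 0.75, a difference of −1.14, where the median of all measured genes was −0.24. Marco, Cd68 and Lyz2 were at least 2-fold higher at 15 weeks than at 10 weeks, against 3.95% of 17487 genes, and no member was 2-fold lower, against 4.07%. Folr2 was 1.49-fold lower, Clec4f 1.41-fold lower and Vsig4 1.21-fold lower at 15 weeks than at 10 weeks, each less than 2-fold. Relative to the median gene Folr2 and Clec4f stood at −0.33 and −0.26 and Vsig4 at −0.028. With spike-in scaling the differences were −0.0048 for Folr2, 0.071 for Clec4f and 0.30 for Vsig4, and Vsig4 also stood at 0.023 with quantile normalization, so the direction between 10 and 15 weeks depends on the scaling for Clec4f and Vsig4. Between 10 and 5 weeks all 10 members lay within 2-fold, against 0.953% of 17107 genes higher and 1.13% lower, with medians of 0.38 for resident and 0.19 for general genes.

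The step from 5 to 15 weeks, between arrays of mice aged 10 and 20 weeks, can be read without the 0-week array. The resident median was −0.15 and the general median 1.16, with a difference of −1.31 (−0.77 by the mean of the members), and Marco, Cd68, Mpeg1 and Lyz2 were at least 2-fold higher, against 4.07% of 17421 genes, and none was 2-fold lower, against 4.31%. Relative to the median gene Clec4f, Folr2, Vsig4 and Timd4 stood at 0.0025, 0.035, 0.097 and −0.054. Their plain differences of −0.21, −0.18, −0.12 and −0.27 turned positive with spike-in scaling. These 4 resident genes were level with the median gene, while Cd5l stood at 0.92 and Marco at 1.58 relative to it.

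**Figure D3:**
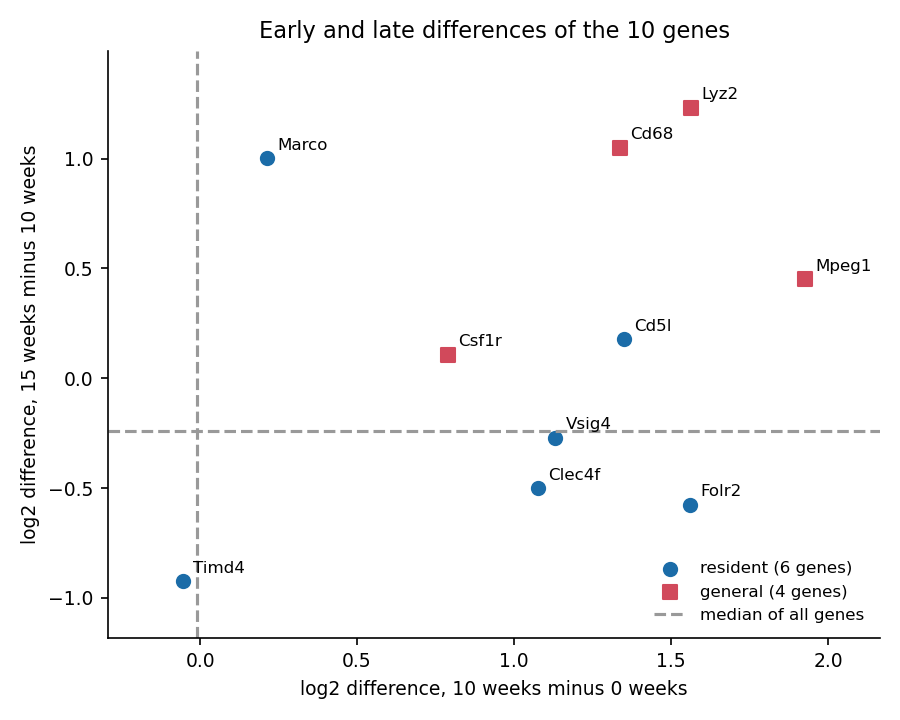
Log2 difference between 15 and 10 weeks (vertical axis) against that between 10 and 0 weeks (horizontal axis) for each of the 10 genes, with circles for resident and squares for general genes and dashed lines at the medians of all measured genes; the axes share the 10-week array. Marco, at 0.21 and 1.0, lies with Cd68 and Lyz2 in height, and Vsig4, Clec4f, Folr2 and Timd4 lie below the dashed line of −0.24.

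Among all measured genes, Lyz2, Cd68 and Mpeg1 stood at percentiles 99.7, 99.4 and 99.4 of the difference between 15 and 0 weeks, and Cd5l, Marco and Folr2 at 97.3, 95.8 and 94.1. Csf1r, Vsig4 and Clec4f were at 93.3, 93.0 and 89.9. These 9 genes were thus all in the upper part of the ranking, and Timd4, at percentile 5.34, was near the lower end.

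Other genes of the same classes were counted from lists. At 5, 10 and 15 weeks against 0 weeks 2.31%, 2.92% and 5.75% of all measured genes were higher and 1.56%, 1.53% and 5.03% lower. Of 9 measured genes of a further resident Kupffer list, 3, 4 and 5 were at least 2-fold higher in these comparisons. None was 2-fold lower, near the share of all genes, and the medians were 0.71, 0.99 and 1.06 (1.31 relative to the median gene at 15 weeks). The highest at 15 weeks were Siglec1 (2.0), a sialic acid receptor that interferon also induces, and Sdc3 (1.25), a syndecan, and the lowest were Slc40a1 (0.24), the iron exporter ferroportin, and Fcna (−0.24), the lectin ficolin A, which was level with the median gene at −0.25. Fcna was 0.93 lower at 15 weeks than at 10 weeks on the log2 scale, and C6, a late complement component, was highest at 5 weeks, with differences from 0 weeks of 1.96, 1.44 and 1.06. Clec1b, the podoplanin receptor CLEC-2, stayed within 2-fold at 0.34, 0.49 and 0.54. The other 3 genes of this list (Cd163, Ptger3 and Kcna2) were not well above background on both arrays in these comparisons.

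Of 19 measured genes of a further general macrophage list, 4, 13 and 17 were at least 2-fold higher at 5, 10 and 15 weeks against 0 weeks. Of all measured genes 2.31%, 2.92% and 5.75% were. None of the list was 2-fold lower, where 1.56%, 1.53% and 5.03% of all genes were. The medians of the list were 0.87, 1.08 and 1.65 (1.90 relative to the median gene at 15 weeks). Cd52, a leukocyte surface glycoprotein (2.37), and the protease Ctss (2.07) were highest at 15 weeks, and Lgmn (0.99), the lysosomal legumain, and the Fc receptor Fcgr3 (0.99) were lowest, just under 2-fold. Cd53, a tetraspanin of leukocytes that was not well above background at 0 weeks, was at least 4.14-fold higher. Between 15 and 10 weeks the median of the further general list was 0.60 over 20 genes and that of the further resident list 0.050 over 9. In that step the resident members had a median of −0.39, below that of the further resident list. Both further lists were, like the members, nearer to each other at 10 weeks than at 15 weeks. The lists were chosen with earlier results known and read on the same 4 arrays, so this is no independent check.

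**Figure D4:**
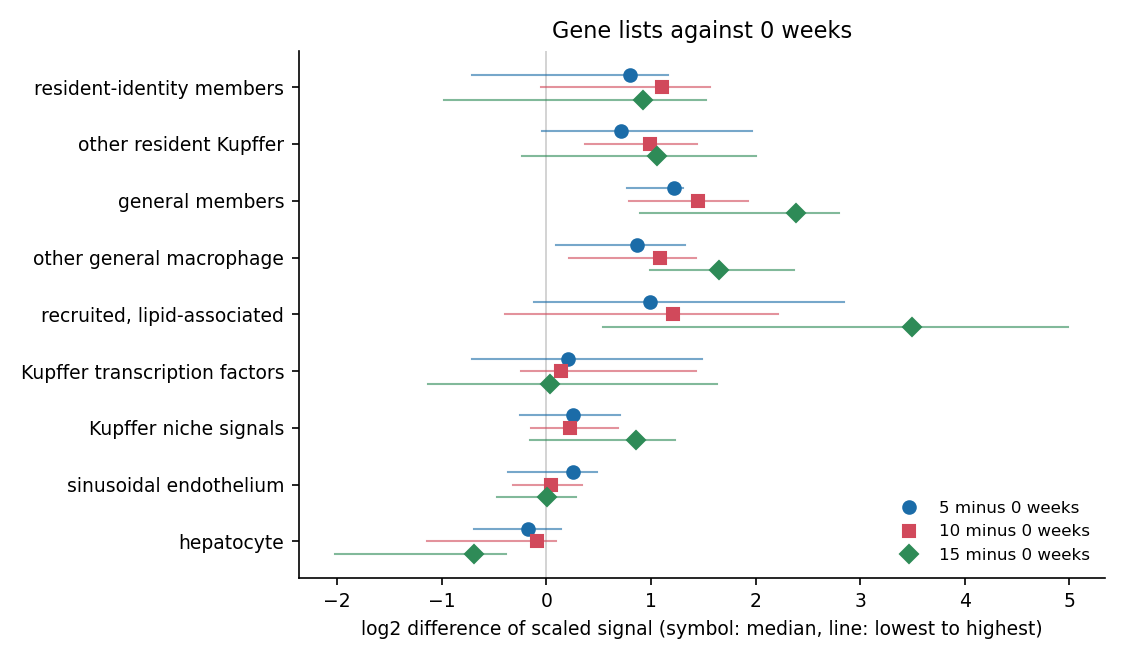
Log2 difference of the scaled signal from 0 weeks (horizontal axis) for the measured genes of each list (vertical axis), with symbols for the median at 5, 10 and 15 weeks and lines from the lowest to the highest gene. The recruited and lipid-associated list has the highest median at 15 weeks (3.49) and the hepatocyte list the lowest (−0.69).

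Regulators of the resident identity did not stand together. At 15 weeks against 0 weeks, 5 of 12 measured transcription factor genes had at least 2-fold more signal and 1 had less, against 5.75% and 5.03% of all measured genes, and their median was 0.039, or 0.29 relative to the median gene. The higher ones included Id1 (1.63) and Id3 (1.43), inhibitors of bHLH factors of which Id3 is needed for Kupffer cells, Irf8 (1.40), a factor of the monocyte lineage, and Spic (1.32), a factor of iron-recycling macrophages. Rxra, the partner of many nuclear receptors, stood at −0.78, where the median gene stood at −0.25. Nr1h3, the sterol sensor LXR-alpha that maintains Kupffer genes, is also abundant in hepatocytes. It stood at 0.033, 0.025 and −0.32 at 5, 10 and 15 weeks, the last close to the median gene. Spi1, the master factor PU.1 of macrophages, was not well above background at 0 weeks and was at least 2.26-fold higher at 15 weeks.

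A further list held genes of signals that the liver offers to Kupffer cells, together with the receptors Acvrl1 and Notch2. Of its 7 measured genes none was 2-fold different at 5 or 10 weeks against 0 weeks. Few of all genes were (2.31% higher and 1.56% lower at 5 weeks, 2.92% and 1.53% at 10 weeks). At 15 weeks against 0 weeks 3 were higher, against 5.75% of all genes, and the median of the list was 0.86, or 1.11 relative to the median gene. They were Acvrl1 (1.23), a receptor of BMP signals, Il34 (1.12), a ligand of the CSF1 receptor, and Tgfb1 (1.07). Dll4, a Notch ligand of endothelium, and Notch2, its receptor, stood at −0.026 and −0.16 at 15 weeks. Csf1, the other ligand of Csf1r, stood at 0.24, 0.53 and 0.86.

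Markers of other cells were read beside the members. Of 9 measured genes of recruited and lipid-associated macrophages 7 were at least 2-fold higher at 15 weeks against 0 weeks, and between 15 and 10 weeks 8 of 9 were, with medians of 3.49 (3.74 relative to the median gene) and 2.25, where 5.75% and 3.95% of all measured genes were higher. Of the others Gpnmb, a glycoprotein of lipid-laden macrophages, was at least 26.1-fold higher at 15 weeks than at 0 weeks, the protease Mmp12 at least 2.70-fold and Ccr2, the receptor that brings monocytes out of the marrow, at least 2.04-fold. The least different at 15 weeks were Cd9 (0.62), a tetraspanin, and Fabp5 (0.54), a fatty acid carrier. Fabp5 was highest at 5 weeks, with differences from 0 weeks of 2.84 at 5 weeks and 1.21 at 10 weeks. At 5 and 10 weeks against 0 weeks 4 and 6 of 9 measured genes of this list were at least 2-fold higher. Their medians were 0.99 and 1.21, and 2.31% and 2.92% of all measured genes were higher. Trem2, a lipid receptor, had scaled log2 signals of −1.27, 0.35, 0.36 and 3.27 at 0, 5, 10 and 15 weeks, and Cx3cr1, a chemokine receptor, of −2.92, −0.75, −0.71 and 2.07. Both were level at 5 and 10 weeks and stood apart at 15 weeks. Neutrophils also make Lyz2, and their marker list had summed signals of 49.0, 53.8, 53.2 and 51.1 times the 75th percentile at 0, 5, 10 and 15 weeks. Most of each sum was the signal of Csf3r, the G-CSF receptor, and without it the sums were 4.07, 6.01, 10.4 and 9.7. S100a8 and S100a9, which monocytes share, differed by 2.62 and 2.41 between 15 and 0 weeks, or 6.15-fold and 5.30-fold, the other 4 measured genes lay within 2-fold, and Mpo and Ngp were not above background on any array. Hepatocyte markers had a median of −0.69 at 15 weeks against 0 weeks, or −0.44 relative to the median gene, and summed signals of 10907, 9406, 10412 and 6805 times the 75th percentile at 0, 5, 10 and 15 weeks. Cps1 (−2.02), of the urea cycle, and Tat (−1.67), of tyrosine breakdown, were the hepatocyte genes that were 2-fold lower. Of 10 sinusoidal endothelial markers none was 2-fold different in any comparison with 0 weeks, where 5.75% of all genes were higher and 5.03% lower at 15 weeks and fewer before, so the count is near that of all genes. The list had a median of 0.0019 at 15 weeks, or 0.25 relative to the median gene. The part of these cells in the members' values was not tested.

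By their 3 differences from 0 weeks, the genes nearest to the mean of the resident members among 12010 candidates were Shisa5, Icos, Olfr1033, Trim12a and Abca8a, at Euclidean distances of 0.053 to 0.12. The mean resident profile was 0.48, 0.88 and 0.70, and Shisa5 had 0.51, 0.84 and 0.68. Nearest to the mean of the general members (1.13, 1.40 and 2.11) were Ly86, Arhgap30, Niban1, Oas1f and Cd74, at distances of 0.064 to 0.19, and Ly86 had 1.10, 1.39 and 2.06. The members spread around these means with SDs of 0.74, 0.65 and 0.88 for resident genes and 0.24, 0.48 and 0.84 for general genes. A gene near a mean is therefore not near each member. Icos and Olfr1033 had low signals, at most −1.46 and −1.60 on any array. The likeness rests on 4 arrays and is a description.

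Promoters were looked at because most members of both groups were higher at 10 weeks and the groups stood apart at 15 weeks. RefSeq sequences (GRCm38.p6) were matched for 9 of the 10 members, and the promoter of Csf1r was not used here. In the 250 bases before the gene start, the PU box GAGGAA, a sequence bound by PU.1 and its relative Spi-C, was searched on both strands together with the AP-1 site TGAGTCA, the E-box CACGTG and the DR4 element that LXR can bind, a direct repeat of AGGTCA with a spacer of 4 bases. GAGGAA was found at 3 of 6 resident genes (Vsig4, Cd5l and Marco) and at 1 of 3 general genes (Cd68), where 23.3% of 32851 promoters hold it. TGAGTCA was found at Folr2, in the second of its promoters, and at Cd68, where 4.46% do, and neither CACGTG (6.02% of promoters) nor the DR4 element (0.0152%) was found at any of them. No match overlapped another. Below, matches to GAGGAA and TGAGTCA on either strand are in capitals, read in the direction of the gene. The sequences lie at chrX:96293439-96293688 on the minus strand for Vsig4, chr3:87357631-87357880 on the plus strand for Cd5l, chr1:120505025-120505274 on the minus strand for Marco, chr11:46810549-46810798 on the plus strand for Timd4 and chr11:69666171-69666420 on the minus strand for Cd68. Timd4, the resident gene that was lowest at 15 weeks, is shown without a match.
Vsig4: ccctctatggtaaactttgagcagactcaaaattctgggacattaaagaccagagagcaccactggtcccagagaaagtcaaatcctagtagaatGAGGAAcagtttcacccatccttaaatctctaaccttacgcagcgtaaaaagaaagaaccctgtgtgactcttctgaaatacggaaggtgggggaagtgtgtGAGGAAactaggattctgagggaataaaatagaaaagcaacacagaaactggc
Cd5l: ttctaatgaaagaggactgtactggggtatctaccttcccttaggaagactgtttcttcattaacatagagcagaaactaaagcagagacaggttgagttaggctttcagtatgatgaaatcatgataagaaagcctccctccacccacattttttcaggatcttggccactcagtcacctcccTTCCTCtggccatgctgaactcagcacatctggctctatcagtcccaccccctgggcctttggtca
Marco: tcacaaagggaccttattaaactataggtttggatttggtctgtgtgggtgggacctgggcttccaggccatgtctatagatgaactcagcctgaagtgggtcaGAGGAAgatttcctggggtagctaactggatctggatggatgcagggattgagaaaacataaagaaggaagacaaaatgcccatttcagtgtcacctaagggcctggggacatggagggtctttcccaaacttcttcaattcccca
Timd4: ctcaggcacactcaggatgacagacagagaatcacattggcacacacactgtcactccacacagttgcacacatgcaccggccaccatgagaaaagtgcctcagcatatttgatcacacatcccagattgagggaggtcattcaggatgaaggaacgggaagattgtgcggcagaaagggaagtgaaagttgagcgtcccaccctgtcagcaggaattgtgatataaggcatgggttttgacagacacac
Cd68: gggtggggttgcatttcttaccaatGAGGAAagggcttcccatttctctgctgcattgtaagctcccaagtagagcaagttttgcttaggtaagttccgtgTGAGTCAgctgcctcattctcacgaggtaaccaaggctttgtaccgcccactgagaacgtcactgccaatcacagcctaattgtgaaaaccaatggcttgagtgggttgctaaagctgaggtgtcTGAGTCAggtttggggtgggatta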

How the data were processed

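Liver total RNA was amplified, labelled with Cy3 and hybridised to 1-colour Agilent arrays, 1 per time point, per the labels' protocols. Signals were read with Agilent Feature Extraction, per the submitters' processing notes, in version 10.7.3.1, per the file headers, which subtracted background and spatial trends. The processed and raw signals are intensity values on a linear scale, per the file headers, and the deposited value table holds the same processed intensity divided by each array's median.

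Here log2 processed signals were scaled to the array's 75th percentile, flagged spots and control spots were left out, spots of a probe were averaged, and a gene was given its brightest probe. A difference was used where both arrays were well above background, and called at 2-fold. Members were matched by gene name (14 probes); of 55681 probes, 27586 others were named by RefSeq accession, 3491 by symbol, 393 by older symbol, and 24197 kept the file's name. Groups come from the sample titles. Python 3.11.15 with pandas 2.3.3 and limma 3.58.1 (normexp with offset 50, quantile normalization) were used, and the steps were tested on simulated data. Members and lists were chosen with earlier results of these data known. The genes named of a list were taken from its 2 highest and 2 lowest at 15 weeks against 0 weeks, but not all of these are named. C6, Clec1b, Irf8, Cd53, Gpnmb, Mmp12, Ccr2, Csf3r, Cd3g, Cd209a, Flt3, Spic, Nr1h3, Spi1, Csf1 and Tgfb1 were added after their values were seen. Stab2 and some genes that were not well above background are named outside this rule. For 1 gene the values are not reported here. Precision is limited by the number of arrays.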

Additional observations from a re-analysis of the deposited data

How the results depend on the processing

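Of the 11 alternatives run for the resident minus general median difference, 6 cannot move it: 4 rescale a whole array, no member spot is marked as uneven, and every member passes the background filter. Under the other 5 it kept its direction at 5, 10 and 15 weeks against 0 weeks and between 15 and 10 or 5 weeks. With normexp it moved to −0.26 at 5 weeks and −0.12 at 10 weeks. When probes of a gene were averaged it was −0.090, −0.22 and −1.196 at 5, 10 and 15 weeks, and between 10 and 5 weeks it was −0.034 in place of 0.19. The averaged-probe value at 5 weeks is smaller than 0.097, the spot error of a single probe's difference between the 5-week and 0-week arrays. An error of the group difference itself was not computed. By the mean over members it was −0.65 and −0.52 at 5 and 10 weeks, −0.89 between 15 and 10 weeks, and −0.77 between 15 and 5 weeks. Without spots in bright surroundings, which drops Timd4 at 0 weeks, it was −1.40 at 15 weeks. The count of resident genes at least 2-fold higher at 15 weeks against 0 weeks was 2, and 4 when scaled on detected probes, under quantile normalization or relative to the median gene, and 5 with spike-in scaling. It was 2 in place of 1 at 5 weeks with detected probes or spike-in scaling, and 2 in place of 1 between 15 and 5 weeks with quantile normalization or spike-in scaling. With averaged probes 1 of the general genes, in place of 3, was 2-fold higher at 5 weeks, with Cd68 at 0.31 and Mpeg1 at 0.99. The averaged values of Cd68 take in its other probe, which was not well above background at 0, 5 and 10 weeks. The cause of these shifts was not tested. Over all genes at 15 weeks against 0 weeks, 1010 were higher and 884 lower (53.3% of calls higher), against 2015 and 317 with spike-in scaling (86.4%), 1338 and 541 with detected probes (71.2%), 591 and 440 with normexp, and 2367 and 2974 without the background filter. Leaving out an array would leave a time point with none and was not run. No paired analysis was possible because each time point has 1 array.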

Other observations

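Lymphocyte and stellate genes, which the account of macrophages does not use, had these values at 15 weeks against 0 weeks, against a background of 5.75% of measured genes higher and 5.03% lower by 2-fold or more. Of 6 measured T and NK cell genes 2 were at least 2-fold higher, Cd7 (2.0) and Cd2 (1.55), both surface receptors of lymphocytes. Of the same genes 1 was lower, Cd4 (−1.02), which some myeloid cells also carry. Cd4 had high scaled log2 signals of 5.22, 5.49, 5.19 and 4.19 at 0, 5, 10 and 15 weeks, whereas Cd8a was not well above background on any array. The source of the Cd4 signal was not tested. Cd3g, of the T cell receptor complex, was not well above background at 0 weeks and was at least 2.98-fold higher. Cd3e, of the same complex and well above background on every array, went the other way, at −0.40. Of 5 measured dendritic cell genes 3 were higher, among them Ccr7 (2.43), the receptor that guides dendritic cells to lymph nodes, and Clec9a (1.15). The lowest of them were Siglech (0.093) and Zbtb46 (−0.97), the last 1.96-fold lower. Siglech too had high scaled log2 signals, of 5.22 to 5.46, and their source was not tested. Cd209a, a lectin of dendritic cells, and Flt3, a growth factor receptor of their precursors, were not well above background at 0 weeks and were at least 6.02-fold and 3.64-fold higher. All 3 measured B cell genes lay within 2-fold, as most genes did. Among 10 stellate cell genes Pdgfrb, a growth factor receptor of pericytes, was higher (1.73) and Acta2, the smooth muscle actin, was lower (−1.70). Each value compares 1 array with 1 array.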
